A study of Homo sapiens with 10 samples.

Results

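The levels of 7 genes of prostaglandin synthesis and breakdown were examined in RNA-seq libraries of HAP1 cells: PLA2G4A, PTGS1, PTGS2, PTGES, PTGES2, PTGES3 and HPGD. They are 7 of the 59453 genes in the count tables, and all 7 passed the filter on low counts. The set was built around PTGS2, which was chosen by its change after H2O2 in these same libraries, and the other 6 genes were added for their place in the pathway. Values after H2O2 are therefore given for all 7 genes as a description, with no test. HAP1 is a near-haploid human line derived from the leukaemia line KBM-7. Groups of 2 libraries came from wild-type (WT) clones 2 and 11, from MUTYH-/ clones 7 and 8 (MUTYH knockout), from OGG1-/ clones 1 and 22 (OGG1 knockout), and from clones 4 and 14 without either gene (DKO), all untreated. The remaining group held WT clones 2 and 11 harvested 24 h after treatment with 100 µM H2O2. MUTYH and OGG1 encode DNA glycosylases that remove adenine opposite 8-oxoguanine and 8-oxoguanine itself. Knockouts were made with CRISPR-Cas9, and every library is 1 clone. Both DKO clones were derived from the same OGG1 knockout clone, by its product number clone 22. Differences between the clones of a group thus include clonal differences, and the 2 libraries per group measure only this spread.

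Prostaglandins are short-range lipid signals made from arachidonic acid. The phospholipase PLA2G4A releases the acid from membranes, the cyclooxygenases PTGS1 and PTGS2 convert it to prostaglandin H2, and the synthases PTGES, PTGES2 and PTGES3 turn that into prostaglandin E2, which HPGD inactivates. PTGS1 is known as the constitutive cyclooxygenase of many tissues. PTGS2 is known as the inducible one, an early response gene whose mRNA is normally short-lived.

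Libraries held 22225091 to 22674964 counts, so that 1 CPM (TMM-normalised library share) rested on about as many reads as PTGS2 had in most untreated libraries. Counts of OGG1 were 27 and 254 in OGG1 knockout clones 1 and 22, 215 and 223 in the DKO clones, and 275 to 331 in the other libraries. Counts of MUTYH were 101 and 83 in the MUTYH knockout clones, 106 and 50 in DKO clones 4 and 14, and 80 to 119 in the others, and an edited gene need not lose its transcript. The untreated libraries were also split into 2 sides by the first principal component of log2 CPM centred within genotype. Such a split puts 1 clone of each genotype on each side by construction, and no label explains it. The sides were WT 2, MUTYH knockout 8, OGG1 knockout 22 and DKO 14 against the other 4 clones. A fit with these sides as a block is given where it adds calls among the genes described. Of 9 haematopoietic markers, 6 stayed under 10 counts in every library and MPO had none. The summed level of the 9 was 0.665 to 0.798 CPM in WT, 0.576 to 0.693 in MUTYH knockout, 1.27 to 1.55 in OGG1 knockout, 1.46 to 2.19 in DKO and 1.18 to 1.72 CPM in treated WT libraries. The summed level of 7 fibroblast markers ranged from 20.8 to 54.4 CPM over all libraries. Most of this was COL1A1, with group means of 16.97 to 39.09 CPM. COL1A2, DCN, LUM and FAP had group means of at most 0.51 CPM.

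The promoter of PTGS2 is shown because the set was built around this gene, and that of PTGES because its product acts on that of PTGS2 while its level after H2O2 was close to that without. PTGS2 lies at chr1:186671791-186680922 on the minus strand of GRCh38 (GENCODE v44), and the window of 250 bases ahead of its RefSeq start is chr1:186680424-186680673 (RefSeq, GRCh38.p14). PTGES lies at chr9:129738331-129753042, also on the minus strand, and its window is chr9:129753043-129753292. Both are written 5′ to 3′ on the strand of the gene. Capitals mark matches to 6 motifs searched: TATAAA on the gene strand (TATA box), and on both strands CGTCA (half-site of the cAMP response element), CACNTG (a form of E-box), GCAAT (core bound by C/EBP factors), TGANTCA (AP-1 site) and TGACNNNGC (core of the antioxidant response element).
PTGS2: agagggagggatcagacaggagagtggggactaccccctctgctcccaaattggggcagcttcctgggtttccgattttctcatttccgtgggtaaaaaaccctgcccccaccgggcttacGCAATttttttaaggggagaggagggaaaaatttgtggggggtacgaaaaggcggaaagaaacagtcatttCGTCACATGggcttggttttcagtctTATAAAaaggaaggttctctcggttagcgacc
PTGES: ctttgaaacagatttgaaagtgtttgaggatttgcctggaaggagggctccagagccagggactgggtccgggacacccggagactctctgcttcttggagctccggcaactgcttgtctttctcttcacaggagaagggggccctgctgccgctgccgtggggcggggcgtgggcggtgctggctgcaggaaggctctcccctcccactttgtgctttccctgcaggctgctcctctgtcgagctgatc
The PTGS2 window held GCAAT 129 bases ahead of the start, CGTCA at 58 overlapping CACATG at 55, and TATAAA at 32, but no match to the AP-1 or antioxidant response motif as spelled. The PTGES window matched none of the 6. All 7 genes had a RefSeq window, 11 in all, and PTGS2 had the only one with TATAAA. The C/EBP core was also found in no other of these windows. The cAMP half-site was found in windows of PTGES3 and HPGD too, and the E-box form in windows of PTGES2 and HPGD. Levels of these 3 genes moved little after H2O2, so neither motif was particular to PTGS2. Any part of the motifs in the change after H2O2 was not tested. Of 35116 human promoter windows of this length, TATAAA was found in 6.8%, CGTCA in 21.2%, GCAAT in 21.3%, CACNTG in 36.5%, TGANTCA in 6.57% and TGACNNNGC in 10.9%. The PTGS2 window lies within an intron of 1 annotated PTGS2 transcript and under no PTGS2 exon.

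In untreated WT cells the 7 genes differed widely in level. Per length of exon, the mean RPKM was 164 for PTGES3, a protein that also serves as the HSP90 co-chaperone p23, 13.4 for PTGES2, 13.3 for PLA2G4A and 3.99 for HPGD. It was 1.03 for PTGES, 0.249 for PTGS1 and 0.17 for PTGS2, so both cyclooxygenases lay at the bottom of the order. These ranks come from 2 WT clones. PTGES2 and PLA2G4A lay within the spread of the clones of each other.

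PTGS2 was low in untreated cells and high after H2O2. It had 20 and 22 counts in untreated WT clones 2 and 11, which is 0.887 CPM (exact 95% Poisson interval 0.542 to 1.37) and 0.975 CPM (0.611 to 1.48). After H2O2 the same clones had 321 and 218 counts, or 14.6 CPM (13 to 16.3) and 9.60 CPM (8.36 to 11). Both treated libraries lay above all 8 untreated ones. Within clone 2 the level was 16.5-fold higher (exact 95% interval 10.5 to 27.3), and within clone 11 it was 9.84-fold higher (6.34 to 16). All such intervals cover counting error only, because reads were counted, and copies of 1 molecule could not be told from separate ones. The log2 fold change of the edgeR fit was 3.68, from 0.931 ± 0.062 to 12.1 ± 3.53 CPM (SD, n = 2 in each group). On the scale per length the treated mean was 2.21 RPKM, so that PTGS2 lay above PTGS1 and PTGES there. Mitochondrial genes took 3.38% and 3% of the counts of treated clones 2 and 11, the lowest shares among the 10 libraries, and their part in the result was not tested.

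**Figure D1:**
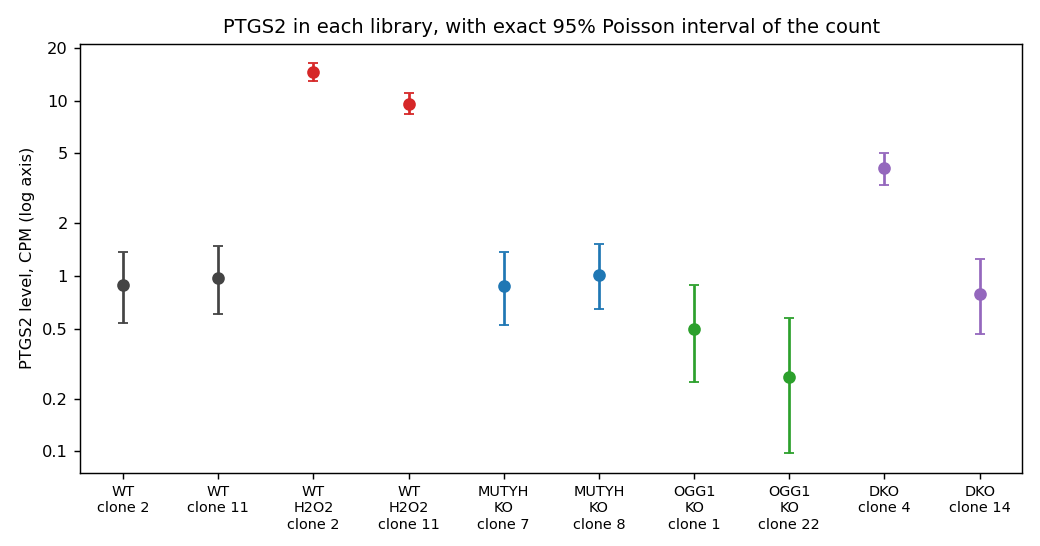
PTGS2 level in CPM (log axis) in each of the 10 libraries, grouped on the x axis by genotype and treatment with the clone number. Points are single libraries and bars are exact 95% Poisson intervals of the count. The 2 treated WT libraries lie at 14.6 and 9.60 CPM, DKO clone 4 at 4.12 CPM, and the other 7 libraries between 0.266 and 1.02 CPM.

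The antisense RNA PACERR lies on the opposite strand (chr1:186680601-186683165). It overlaps the upstream end of the GENCODE span of PTGS2 and part of the window ahead of the RefSeq start. The strand setting of the counting is not given in the sources used here. PACERR had 0 to 4 counts in every library, with 1 and 2 in the treated WT clones, where PTGS2 had 321 and 218. PLA2G4A is the next gene of the 7 on chromosome 1, 148.0 kb away on the other strand (chr1:186828949-186988981). Its own counts after H2O2 were 1089 and 886 against 978 and 748 without, or 1.14-fold (1.05 to 1.25) in clone 2 and 1.18-fold (1.07 to 1.3) in clone 11. The 56 expressed genes within 10 Mb of PTGS2 had a median log2 level, relative to the mean of the 10 libraries, of 0.18 and 0.26 in clone 2 without and with H2O2, and of -0.11 and 0.05 in clone 11.

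The remaining genes moved little after H2O2, and some in opposite directions in the 2 clones. PTGS1 had 29 and 36 counts in untreated clones 2 and 11 and 23 and 42 after H2O2. These are 0.813-fold (0.449 to 1.46) and 1.16-fold (0.725 to 1.86), both with intervals that include no change. PTGES had 45 and 43 counts without and 36 and 49 with H2O2, or 0.82-fold (0.514 to 1.3) and 1.13-fold (0.736 to 1.75). The cyclooxygenase and the synthase that work on low counts could therefore have changed by up to the bounds of these intervals. PTGES2, a membrane-associated synthase, was 0.993-fold (0.933 to 1.06) and 0.902-fold (0.841 to 0.968). PTGES3 was 0.953-fold (0.93 to 0.976) in clone 2 and 1.15-fold (1.12 to 1.18) in clone 11, opposite directions beyond counting error. HPGD was 0.906-fold (0.768 to 1.07) and 0.838-fold (0.749 to 0.938). A differentially expressed gene (DEG) is one with a log2 fold change beyond 1 either way with P no larger than 0.05 before adjustment. This criterion is not applied to the 7 genes after H2O2, since the contrast chose PTGS2. Over all genes tested in it 1.75% were DEGs, or 2.78% with clone as a block, and 2.57% had an adjusted p of at most 0.05 with that block.

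**Figure D2:**
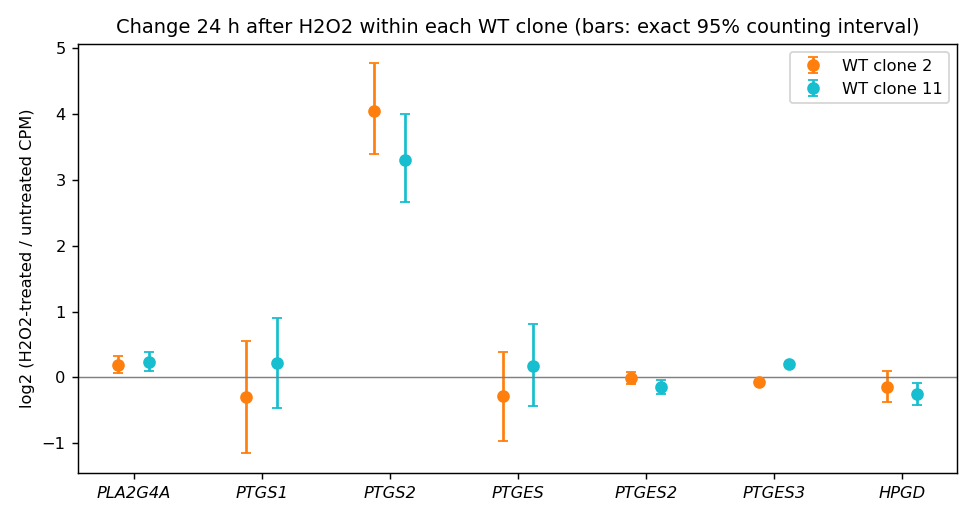
Change 24 h after H2O2 of the 7 genes within WT clone 2 and WT clone 11, as log2 of treated over untreated CPM. Bars are exact 95% counting intervals. PTGS2 lies at 4.04 and 3.30, and of the other 6 genes PTGS1 lies farthest from 0, at -0.30 in clone 2.

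Among the untreated genotypes PTGS2 was lowest in the OGG1 knockout and uneven in the DKO. MUTYH knockout clones 7 and 8 had 19 and 23 counts, which is 0.877 CPM (0.528 to 1.37) and 1.02 CPM (0.646 to 1.53). OGG1 knockout clones 1 and 22 had 11 and 6 counts, or 0.497 CPM (0.248 to 0.889) and 0.266 CPM (0.0978 to 0.58). DKO clone 4 had 92 counts, or 4.12 CPM (3.32 to 5.05), whereas DKO clone 14 had 18, or 0.794 CPM (0.47 to 1.25). The OGG1 knockout libraries lay below all others, the WT and MUTYH knockout libraries overlapped, and DKO clone 14 lay between the OGG1 knockout and the remaining clones. The DKO clones differed 5.19-fold from each other (exact 95% interval 3.11 to 9.14). DKO clone 4 also had the highest mitochondrial share of all libraries, 7.46%, and its part in the result was not tested.

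The order of group means was OGG1 knockout (0.382 ± 0.163 CPM), WT (0.931 ± 0.062), MUTYH knockout (0.948 ± 0.101), DKO (2.46 ± 2.35) and treated WT (12.1 ± 3.53), each with SD and n = 2. WT and MUTYH knockout differed by less than their spread, and the DKO spread reached across both. Comparisons with WT and the interaction use the 2 untreated WT libraries that also entered the contrast that chose PTGS2. Fold changes among the knockouts do not, but their P draws on a spread estimated over all 8 untreated libraries.

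PTGS2 was higher in the DKO than in the OGG1 knockout, the genotype it was derived from. The log2 fold change was 2.68 ± 0.78 (SE), with an unadjusted P of 0.0103 and an adjusted p of 1 in edgeR's quasi-likelihood test. It was the 1 DEG among the 7 genes in this comparison, in which 1.44% of all genes tested were DEGs. Without DKO clone 4 the value was 1.04 (edgeR unadjusted P = 0.116), and without clone 14 it was 3.41. With only these 4 libraries fitted it was 2.68 (edgeR unadjusted P = 0.023). Without OGG1 knockout clone 22 it was 2.29 (edgeR unadjusted P = 0.0625). The call thus rests on DKO clone 4 and on OGG1 knockout clone 22.

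In the other pairwise genotype comparisons PTGS2 was no DEG. Against WT, its log2 fold change by edgeR was 0.02 ± 0.74 in the MUTYH knockout (edgeR unadjusted P = 0.976), -1.27 ± 0.80 in the OGG1 knockout (edgeR unadjusted P = 0.153) and 1.40 ± 0.72 in the DKO (edgeR unadjusted P = 0.0892). Without DKO clone 4 the last value was -0.24, and without clone 14 it was 2.13, past the criterion. Against the MUTYH knockout it was 1.38 ± 0.72 in the DKO (edgeR unadjusted P = 0.0935), with -0.26 without DKO clone 4 and 2.11, past the criterion, without clone 14. It was -1.30 ± 0.80 in the OGG1 knockout (edgeR unadjusted P = 0.147). The interaction (how much more MUTYH loss shifted the level in cells that already lacked OGG1 than in WT) was 2.65 ± 1.07 (edgeR unadjusted P = 0.0412, adjusted p = 0.999972). Leaving out any 1 of the 8 libraries other than DKO clone 14 took it below the criterion, with values of 1.01 (without DKO clone 4) to 3.17 (without OGG1 knockout clone 1).

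PTGS1, the other cyclooxygenase, had its highest untreated levels in the DKO, within counting error of OGG1 knockout clone 1. Beside the 29 and 36 counts of WT clones 2 and 11, MUTYH knockout clones 7 and 8 held 31 and 22 and OGG1 knockout clones 1 and 22 held 52 and 38. DKO clones 4 and 14 held 57 and 60. Both DKO clones lay above all other untreated libraries, at 2.55 and 2.65 CPM against 0.975 to 2.35 CPM. Against the MUTYH knockout the log2 fold change was 1.11 ± 0.36 (SE), with an unadjusted P of 0.0162 and an adjusted p of 0.999806 in edgeR. It was the 1 DEG among the 7 genes there, and 1.99% of all genes were DEGs in that comparison. Without MUTYH knockout clone 8 the value was 0.85 (edgeR unadjusted P = 0.102) and without DKO clone 14 it was 1.08 (edgeR unadjusted P = 0.0524), so that either clone decided the call. Against WT it was 0.85 ± 0.35 (edgeR unadjusted P = 0.0456, adjusted p = 0.99996), which is under the fold of the criterion. Against the OGG1 knockout it was 0.36 ± 0.35 (edgeR unadjusted P = 0.329). The summed haematopoietic markers given above were also higher in the DKO (1.46 to 2.19 CPM) than in the MUTYH knockout (0.576 to 0.693 CPM). CD34 made the largest part of this, with group means of 0.846 and 0.203 CPM. Of the 9 markers, 6 stayed under 10 counts in every library, with MPO at 0 throughout. The part of these markers in the result was not tested.

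The 3 prostaglandin E synthases did not reach the criterion in any genotype comparison. PTGES, the synthase known to be induced together with PTGS2, was counted 45 and 43 times in WT clones 2 and 11 and 69 and 6 times in MUTYH knockout clones 7 and 8. OGG1 knockout clones 1 and 22 held 93 and 66 counts, and DKO clones 4 and 14 held 70 and 83. MUTYH knockout clone 8 stood far below every other library, at 0.266 CPM, and the other untreated libraries ranged from 1.91 to 4.2 CPM. The OGG1 knockout and DKO libraries lay above both WT libraries, with edgeR log2 fold changes of 0.87 ± 0.83 and 0.80 ± 0.83 (SE). PTGES2 ranged from 71.3 to 89.6 CPM over the untreated libraries, with a coefficient of variation of 7.94%, the smallest of the 7. PTGES3 ranged from 440 to 648 CPM.

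PLA2G4A, at the head of the pathway, ranged from 31.5 to 43.4 CPM over the 8 untreated libraries, 1.38-fold from lowest to highest. The clones of WT, OGG1 knockout and DKO each spanned most of that range. HPGD, at its end, ranged more widely, from 9.55 to 30.3 CPM. WT clones 2 and 11 held 311 and 685 counts, MUTYH knockout clones 7 and 8 held 298 and 492, OGG1 knockout clones 1 and 22 held 564 and 215, and DKO clones 4 and 14 held 452 and 528. The WT clones kept their order after H2O2, with 275 and 578 counts. No genotype stood apart for HPGD, since the clones of WT and of OGG1 knockout each spanned most of the range and those of MUTYH knockout and DKO lay within it.

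**Figure D3:**
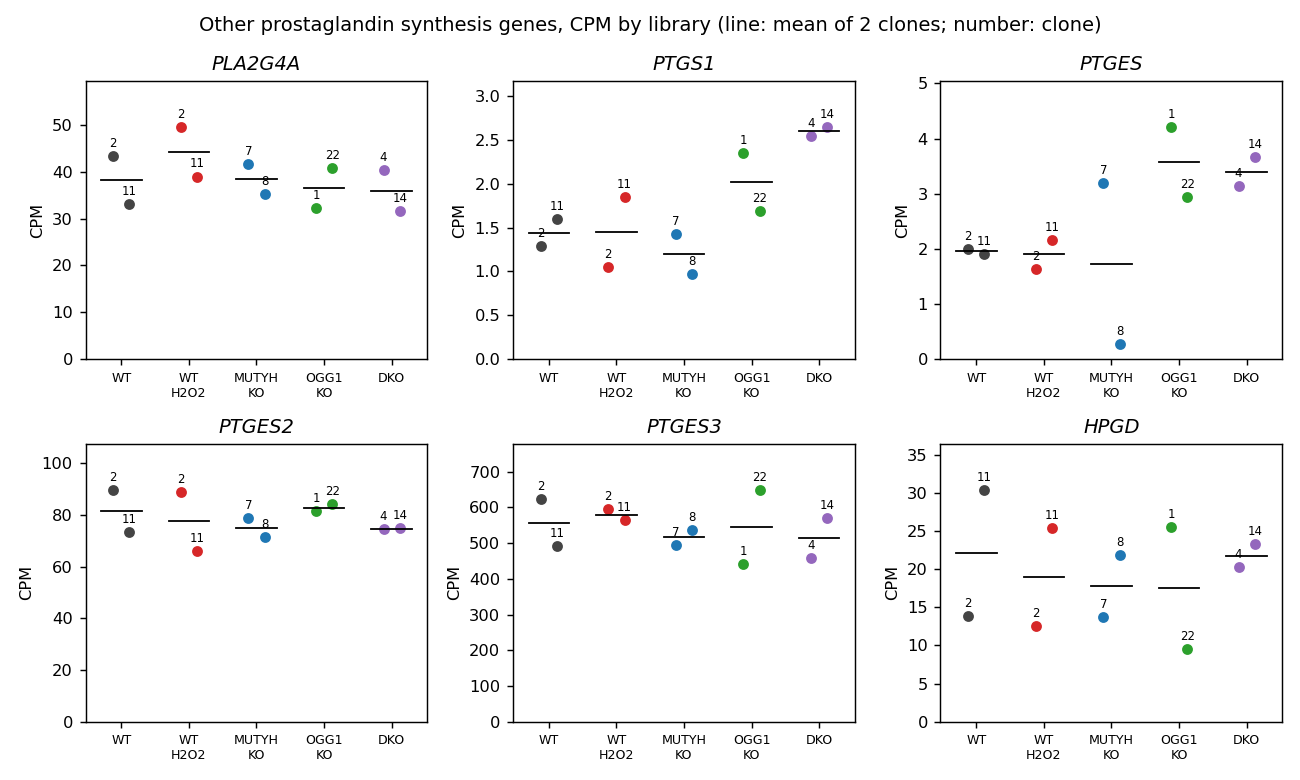
Levels in CPM of PLA2G4A, PTGS1, PTGES, PTGES2, PTGES3 and HPGD in each library, 1 panel per gene with its own axis from 0. Points are single libraries with their clone number and lines are means of 2 clones. Both DKO points of PTGS1 lie at 2.55 and 2.65 CPM, and MUTYH knockout clone 8 lies at 0.266 CPM for PTGES.

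By the DEG criterion, the 7 genes gave 0 calls in MUTYH knockout against WT, 0 in OGG1 knockout against WT and 0 in DKO against WT. The shares among all genes tested were 1.19%, 1.67% and 1.77%. OGG1 knockout against MUTYH knockout gave 0 calls, with 1.43% of all genes called. The interaction gave 1, PTGS2, with 2% of all genes called. Single calls among 7 genes are too few to set against these shares. No gene of the 7 had an adjusted p of at most 0.05 in any genotype comparison by edgeR or by the Wald test of DESeq2. At an unadjusted P of at most 0.05, edgeR gave 1 of the 7 in each comparison of the DKO and in the interaction, and 0 in the other 3 comparisons. The shares of all genes at this P were 1.72%, 2.74% and 2.94% for MUTYH knockout, OGG1 knockout and DKO against WT. They were 2.62%, 3.43%, 2.53% and 2.62% for DKO against OGG1 knockout, DKO against MUTYH knockout, OGG1 against MUTYH knockout and the interaction. DESeq2 gave 0 for DKO against WT and otherwise the same numbers. Without MUTYH knockout clone 7, which leaves clone 8 as the only MUTYH knockout library, 1 of the 7 was called in MUTYH knockout against WT, 1 in OGG1 against MUTYH knockout and 2 in DKO against MUTYH knockout. With the 2 sides as a block, PTGS2 in DKO against OGG1 knockout was 2.53 (edgeR unadjusted P = 0.00642, adjusted p = 0.635). The sides were made from these same libraries.

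**Figure D4:**
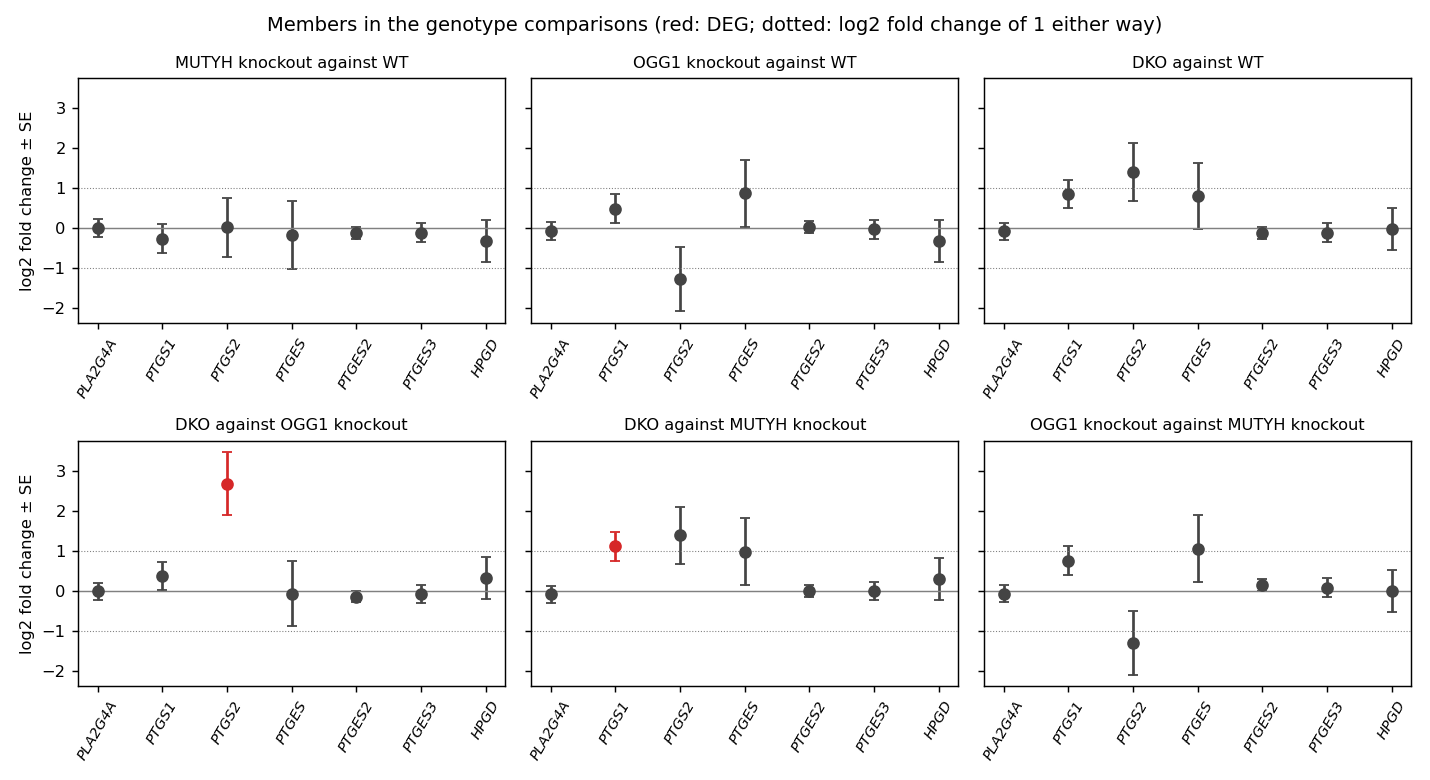
Log2 fold change ± SE of the 7 genes in 6 genotype comparisons, 1 panel each, from 1 edgeR fit of the 8 untreated libraries. Red points are DEGs and dotted lines mark a log2 fold change of 1 either way. PTGS2 is red in DKO against OGG1 knockout (2.68) and PTGS1 in DKO against MUTYH knockout (1.11).

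Other genes of arachidonic acid metabolism were taken from 6 lists with 60 genes: phospholipases and other lipases, arachidonate supply, other terminal synthases, turnover and transport, prostanoid receptors, and the lipoxygenase branch. After H2O2, 36 of them were tested, and 1 was a DEG upward and 3 downward, against 1.75% of all genes. The upward gene, PLA2G4C, passed the filter on low counts only through the treated libraries, so its call is not separate support. Their median log2 fold change was -0.168, and that of all genes was 0.000176. By edgeR without a block 0 had an adjusted p of at most 0.05 and 8 an unadjusted P of at most 0.05 (7.63% of all genes had one). The Wald test of DESeq2 gave 4 and 7, and its shares of all genes are not given here. With the WT clones paired as a block, edgeR gave 1 upward (PLA2G4C) and 4 downward at an adjusted p of at most 0.05. Of all genes, 2.57% had such a p in that fit, 200 upward and 237 downward. That fit left only 1 residual degree of freedom.

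PLA2G4C, a phospholipase A2 of the same family as PLA2G4A, was the gene that rose. It had 0 and 3 counts in untreated WT clones 2 and 11, and 46 and 44 after H2O2. Summed over the clones this is 30.3-fold (exact 95% interval 10 to 150). PLA2G4C passed the filter on low counts only through the treated libraries, so its test is not separate support for the rise. The edgeR test gave an unadjusted P of 0.00149, an adjusted p of 0.638, and an adjusted p of 0.00365 with the clone block. It had 0 to 5 counts in the other 6 libraries, the highest in DKO clone 4. The gene (chr19:48047843-48110817, minus strand) overlaps the antisense gene PLA2G4C-AS1, and reads of the pair could not be told apart without the strand.

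The phospholipase PLA2G6 had 551 and 623 counts in untreated WT clones 2 and 11 and 325 and 258 after H2O2. Its log2 fold change was -1.0 ± 0.21 (edgeR unadjusted P = 0.00397, adjusted p = 0.638, and 0.0135 with the clone block), and it only just passed the fold of the criterion. FAAH, a hydrolase of fatty acid amides, had 59 and 48 counts without and 22 and 21 with H2O2 (-1.30 ± 0.34, edgeR unadjusted P = 0.00994, adjusted p = 0.0642 with the block). The secreted phospholipase PLA2G3 had 14 and 17 counts without and 3 and 7 with H2O2 (-1.61 ± 0.58, edgeR unadjusted P = 0.0348, adjusted p = 0.14 with the block). The treated libraries were the lowest of all 10 for each of these 3 genes. The call of PLA2G6 was lost without untreated (-0.91) or treated clone 11 (-0.82), that of FAAH without untreated clone 2 (-1.15) or treated clone 11 (-1.24), and that of PLA2G3 without untreated clone 11 (-1.46), untreated clone 2 (-1.75) or treated clone 2 (-1.16).

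Of 7 genes that supply arachidonic acid to membranes, 0 were DEGs, and 3 were lower after H2O2 at an adjusted p of at most 0.05 with the clone block. Over all genes tested after H2O2, 1.75% were DEGs, and 2.57% had such an adjusted p with the block. FADS1 and FADS2, the desaturases that make it from dietary precursors, had log2 fold changes of -0.64 ± 0.13 and -0.78 ± 0.14, with edgeR adjusted p of 0.019 and 0.00906 under the clone block. ACSL3, an acyl-CoA synthetase, had -0.53 ± 0.13 (edgeR adjusted p = 0.0404 with the block). FADS2 had 12869 and 13978 counts in untreated clones 2 and 11 and 8062 and 7460 after H2O2. All 3 had adjusted p of 0.638 in edgeR without the block. The median of the 7 genes of this list was -0.531, and the other 4 did not pass. Untreated DKO had group means of 206.4 CPM for FADS1, 352.2 for FADS2 and 116.1 for ACSL3. These were 312.3, 595 and 138.3 CPM in untreated WT and 201.6, 347.4 and 96.2 CPM in treated WT. In DKO against WT the list median was -0.321 (0.000785 for all genes), and 0 of the 7 were DEGs.

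Across the genotypes 38 of the 60 genes were tested, and 0 to 2 were DEGs in each comparison, beside the 1.19% to 2% of all genes given above. No gene had an adjusted p of at most 0.05 by edgeR or DESeq2. An unadjusted P no larger than 0.05 was reached by 0 to 4 with either tool, beside 1.72% to 3.43% of all genes by edgeR. PTGER4, a receptor for prostaglandin E2, was counted 3 and 19 times in WT clones 2 and 11 and 46 and 38 times in MUTYH knockout clones 7 and 8. OGG1 knockout clones 1 and 22 held 28 and 16 counts, and DKO clones 4 and 14 held 7 and 10. It was higher in the MUTYH knockout than in WT by 1.95 ± 0.71 on the log2 scale (edgeR unadjusted P = 0.0279, adjusted p = 0.999733). Without WT clone 2 this was 1.16 and no longer past the criterion. It was lower in the DKO than in the MUTYH knockout, with a log2 fold change of -2.31 ± 0.73 (edgeR unadjusted P = 0.0151, adjusted p = 0.999806). In the DKO, ALOX5, the first enzyme of leukotriene synthesis, and MGLL, a lipase of monoacylglycerols, were higher than in the OGG1 knockout by 1.24 ± 0.53 and 1.79 ± 0.72 (edgeR unadjusted P = 0.0494 and 0.0412). ALOX5 had 22 and 38 counts there against 11 and 14, and MGLL 23 and 23 against 9 and 4. Leaving out OGG1 knockout clone 22 or DKO clone 14 ended either call, as did OGG1 knockout clone 1 for ALOX5 and DKO clone 4 for MGLL. That of PTGER4 in DKO against MUTYH knockout ended without MUTYH knockout clone 7 or DKO clone 4, and that against WT also without MUTYH knockout clone 7. With the sides as a block more genes were DEGs. The sides were made from the spread between clones in these same libraries, so the added calls are not separate support. ALOX5 and PTGIS were added in DKO against WT (2.44% of all genes were then DEGs), SLCO2A1, a prostaglandin transporter, in DKO against OGG1 knockout (2.06%), SLCO2A1 and ALOX5 in DKO against MUTYH knockout (2.55%), and ALOX5 in the interaction (3.17%).

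PTGIS, which makes prostacyclin from the product of the cyclooxygenases, was found in a subset of clones. It had 21 counts in OGG1 knockout clone 22, 21 in DKO clone 4 and 19 in DKO clone 14. The other OGG1 knockout clone and both MUTYH knockout clones had 0, and the WT libraries had 1 to 3. The 3 clones with the gene are the OGG1 knockout clone given as the parent and the DKO clones made from it. PTGIS passed the filter on low counts only through these 3 clones, so the P values below are not separate support for a difference. Against a floor of 3 counts over the MUTYH knockout group, PTGIS was at least 13.1-fold higher in the DKO (edgeR unadjusted P = 0.0176) and at least 6.93-fold higher in the OGG1 knockout (edgeR unadjusted P = 0.0397), the latter from clone 22 alone. Leaving out MUTYH knockout clone 8 ended both calls, and leaving out MUTYH knockout clone 7 or OGG1 knockout clone 22 ended the latter.

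**Figure D5:**
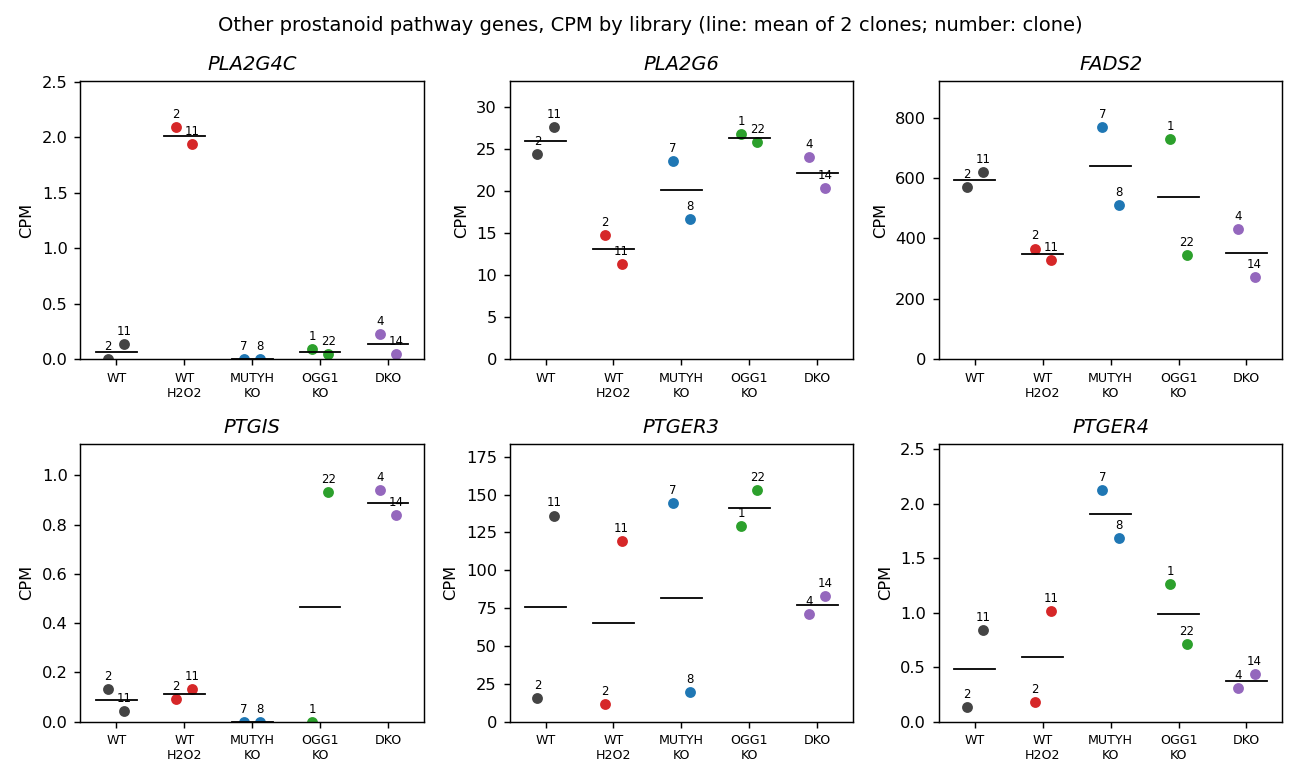
Levels in CPM of PLA2G4C, PLA2G6, FADS2, PTGIS, PTGER3 and PTGER4 in each library, 1 panel per gene with its own axis from 0. Points are single libraries with their clone number and lines are means of 2 clones. PLA2G4C is near 2.01 CPM in treated WT and at most 0.224 CPM elsewhere, and PTGIS is at 0.838 to 0.94 CPM in OGG1 knockout clone 22 and both DKO clones.

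Of 18 genes known to regulate PTGS2 transcription or the stability of its mRNA, all were tested. After H2O2, 2 were DEGs upward and 0 downward, beside 1.75% of all genes. The list median was 0.123 on the log2 scale and that of all genes was 0.000176. JUN, an AP-1 subunit, had 256 and 152 counts in untreated WT clones 2 and 11 and 480 and 646 after H2O2, which is 1.92-fold and 4.22-fold. Its log2 fold change was 1.47 ± 0.31 (edgeR unadjusted P = 0.00378, adjusted p = 0.638, and 0.00752 with the clone block). FOS, its partner, had 40 and 32 counts without and 56 and 122 with H2O2, or 1.30 ± 0.45 (edgeR unadjusted P = 0.029, adjusted p = 0.638, and 0.0821 with the block). The calls ended without treated clone 11, with 1.27 for JUN and 0.67 for FOS, and that of FOS also without untreated clone 11 (1.15). JUN and FOS rose more in clone 11 than in clone 2, and this difference between clones was not tested. In the untreated genotypes 1 of the 18 was a DEG in DKO against MUTYH knockout and 1 in OGG1 against MUTYH knockout, where 1.99% and 1.43% of all genes were, and 0 in the other comparisons. FOS was higher than in the MUTYH knockout by 1.15 ± 0.35 in the DKO and by 1.03 ± 0.35 in the OGG1 knockout (edgeR unadjusted P = 0.0132 and 0.0211). These calls ended without MUTYH knockout clone 8, the former also without DKO clone 4 (0.99) and the latter also without MUTYH knockout clone 7 or OGG1 knockout clone 22 (0.77).

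The genes most like PTGS2 over the 10 libraries were MTRF1L, DIS3, RNF25, MYG1 and USP36, with Pearson r of log2 CPM between 0.949 and 0.962 among 15561 genes compared. The points share clones and libraries, and no p is given. MTRF1L, a mitochondrial release factor, had 34.1 and 32.7 CPM in treated WT clones 2 and 11, 31.4 CPM in DKO clone 4, 26.9 CPM in DKO clone 14, 24.6 to 25.6 CPM in untreated WT and MUTYH knockout, and 22 and 22.2 CPM in OGG1 knockout clones 1 and 22. As for PTGS2, the treated WT libraries and then DKO clone 4 were the highest. The OGG1 knockout libraries were the lowest, and the range was far smaller. MTRF1L was picked by its r with PTGS2 over these same libraries, so the shared order is not a separate finding. Among the 7 genes themselves PLA2G4A had the highest r with PTGS2, 0.517, and the other 5 lay between -0.18 and 0.0858.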

How the data were processed

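Read counts per gene were deposited for 10 RNA-seq libraries. The authors aligned reads to GRCh38.p13 with HISAT2 2.2.1 and counted them per gene with featureCounts of Rsubread. Strand setting and treatment of reads with several alignments are not given in the sources used here. The 7 genes and all gene lists were chosen with earlier results of these data known.

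Tests on these counts used edgeR 4.0.16 under R 4.3.3 (TMM, filterByExpr by group, quasi-likelihood F test, legacy=TRUE). The 8 untreated libraries were fitted together (17881 genes, 4 residual degrees of freedom), and the 4 WT libraries for H2O2 (16997 genes, 2 residual degrees of freedom). With a block the residual degrees of freedom were 3 for the genotypes (sides) and 1 for H2O2 (clone). P values were two-sided, and adjusted p (Benjamini-Hochberg) covers all genes tested. DEGs were defined as in the study's methods, by P no larger than 0.05 before adjustment and log2 fold change beyond 1 either way. SE came from the F statistic. CPM are given as mean ± SD. RPKM used GENCODE v44 exon lengths, which may differ from the annotation used for counting. Clone numbers pair treated with untreated WT libraries, since both come from the same clones (clone differences with and without H2O2 correlated across 16997 genes, Pearson r = 0.681), and clone was a block in an alternative fit. The scripts were tested on simulated data.

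Named genes were the 7, list genes that were DEGs or had an adjusted p of at most 0.05 (at most 6 per comparison), the 5 genes most correlated with PTGS2 (mean of at least 1 CPM in some group), and its neighbours. FADS1, FADS2 and ACSL3, which pass only with the block, and PTGER3 were chosen after their values were seen. Alternatives were DESeq2 1.42.0 (size factors, Wald test), edgeR 4 quasi-likelihood (legacy=FALSE), no filter, at least 10 counts in every library, only the libraries compared, blocks, and each library left out.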

Additional observations from a re-analysis of the deposited data

Results flagged for a closer look

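For 3 of the genes described, the interaction of MUTYH loss and OGG1 loss in the edgeR fit of the 8 untreated libraries met the DEG criterion before adjustment, beside 2% of all genes tested (358 of 17881). The log2 interaction was 2.65 ± 1.07 (SE) for PTGS2, with an unadjusted P of 0.0412 in edgeR. It was 2.84 ± 1.01 for MGLL (edgeR unadjusted P = 0.0244) and -3.32 ± 1.03 for PTGER4 (edgeR unadjusted P = 0.0137). None passed adjustment (edgeR adjusted p = 0.999972 for each). PTGS2 had 19 and 23 counts in the MUTYH knockout clones against 20 and 22 in WT, and 92 and 18 in the DKO clones against 11 and 6 in the OGG1 knockout. MGLL had 4 and 15 counts in MUTYH knockout clones 7 and 8 against 28 and 12 in WT clones 2 and 11, and 23 and 23 in the DKO against 9 and 4 in OGG1 knockout clones 1 and 22. PTGER4 had 46 and 38 counts against 3 and 19, and 7 and 10 against 28 and 16. The PTGER4 term stayed past the criterion with each of the 8 libraries left out in turn (-5.16 to -2.54), that of MGLL in 3 of 8 cases (2.11 to 4.01) and that of PTGS2 in 1 of 8.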

How the results depend on the processing

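Of 108 recomputed counts of calls and values of PTGS2 after H2O2, leaving out no library, 83 stayed within 1.5 times the reported count or within the spread, and 25 moved. With clone as a replicate block (paired), PTGS2 after H2O2 was 3.66. Among the 7 genes, the calls became 1 in OGG1 knockout against WT and against MUTYH knockout when only the libraries compared were fitted (PTGS2, lower, both times), 1 in DKO against WT without a filter, 0 in DKO against OGG1 knockout with at least 10 counts in every library (PTGS2 was then not tested), and 0 in the interaction with that filter or edgeR 4. Among the 60 pathway genes, the filter of 10 counts gave 0 in 5 comparisons (MUTYH knockout against WT, both comparisons of the DKO with single knockouts, OGG1 against MUTYH knockout, the interaction) and 2 after H2O2. No filter gave 2 in OGG1 knockout against WT, DKO against WT and OGG1 against MUTYH knockout, and 4 in both comparisons of the DKO with single knockouts. The side block gave 2 in DKO against WT and 4 in DKO against MUTYH knockout. EdgeR 4 gave 1 in DKO against WT and 2 in OGG1 against MUTYH knockout, and only the libraries compared gave 1 and 0. In DKO against OGG1 knockout, DESeq2 size factors gave 1 and the Wald test 0. Apart from filters that drop genes, the causes were not tested. With each library left out, the calls among the 7 genes ranged from 0 to 2 in DKO against MUTYH knockout, 0 to 0 in OGG1 knockout against WT and 0 to 1 elsewhere. Those among pathway genes ranged from 1 to 6 in DKO against MUTYH knockout, 1 to 2 against OGG1 knockout, 0 to 1 against WT, 0 to 3 in MUTYH knockout against WT, 0 to 4 in OGG1 knockout against WT, 0 to 2 in OGG1 against MUTYH knockout, 1 to 4 in the interaction and 2 to 3 after H2O2. PTGS2 after H2O2 ranged from 3.34 to 3.96. Its log2 fold change turned in sign without DKO clone 4 in DKO against WT (range -0.24 to 2.13) and DKO against MUTYH knockout (-0.26 to 2.11). In MUTYH knockout against WT it turned without WT clone 2 (-0.05) or MUTYH knockout clone 8, within a range of -0.080 to 0.12. PTGIS in OGG1 against MUTYH knockout ranged from 0 (without OGG1 knockout clone 22) to 7.39 on the log2 scale. With 6 to 23 PTGS2 counts in most untreated libraries, differences between genotypes within these counting intervals were not detectable.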

Other observations

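PTGER3, a receptor for prostaglandin E2 and the most abundant of the prostanoid receptors listed here, differed widely between the clones of WT and of MUTYH knockout. It was chosen after its values were seen. WT clone 2 had 358 counts and WT clone 11 had 3074, and after H2O2 they had 251 and 2708. MUTYH knockout clone 8 had 437 counts and clone 7 had 3135. The OGG1 knockout clones had 2867 and 3447 counts, and the DKO clones 1583 and 1888. PTGES likewise had 6 counts in MUTYH knockout clone 8 and 43 to 93 in the other untreated libraries. These are values of single clones and no test was made of them.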
